A study of Mus musculus with 6 samples.

Results

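The MHC class I antigen presentation genes were followed in hematopoietic stem cells (HSCs) from mouse bone marrow (BM), as 10 of the 21878 gene rows of the deposited tables. The members were the rows whose symbol was H2-K1, H2-D1, B2m, Tap1, Tap2, Tapbp, Psmb8, Psmb9, Psmb10 or Nlrc5, and each symbol was found. The cells were sorted as CD34- Flk2- Lineage- Sca1+ c-Kit+ cells from wild-type mice, of the C57BL/6 strain per the study's methods. The control group (3 libraries) came from vehicle-treated mice and the IGF1 group (3 libraries) from mice given 1 subcutaneous dose of 200 µg/kg recombinant insulin-like growth factor 1, sampled at day 1. The dose and the day come from the study's text. The labels conflict, since the treatment field names IGF1 while the extraction text speaks of irradiation, and IGF1 was kept. Nothing in the labels says that the 3 libraries of a group came from separate mice, so the p-values measure only the spread between these libraries. In such bulk RNA, fewer cells that use a gene and less of its RNA per cell cannot be told apart.

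MHC class I molecules show peptides from inside the cell to CD8 T cells. Proteasomes cut proteins into peptides, and in immune cells the immunoproteasome subunits encoded by Psmb8, Psmb9 and Psmb10 take the place of the constitutive ones encoded by Psmb5, Psmb6 and Psmb7. The transporter made of Tap1 and Tap2 pumps the peptides into the endoplasmic reticulum (ER), where tapasin (Tapbp) holds the empty class I molecule next to it. That molecule pairs a heavy chain, of which H2-K1 and H2-D1 encode the classical ones of this strain, with the light chain β2-microglobulin (B2m). Nlrc5 is the transactivator of these genes. It acts through factors of the RFX, CREB/ATF and NF-Y families that sit on a composite promoter element, and interferon gamma is the best known inducer of the whole set.

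That element was looked for in the 250 bases before the RefSeq starts (build GRCm38.p6), which were at hand for 8 of the 10 genes, all but Tap2 and Nlrc5. The search used the cores of its X2 box (TGACG) and of its Y box (ATTGG) on both strands. An X2 core followed by a Y core after 20 bases stood in 3 of the 8 genes, which were B2m and both heavy chain genes. The same arrangement was found in 30 of 32851 promoters of this length (0.0913%), while an X2 core anywhere in the window was in 17.8% of them and a Y core in 33.8%. The stretches are shown because they carry what these 3 genes have in common. Capitals mark the X2 core and the Y core, and in B2m also a match to the interferon-stimulated response element (searched as GAAANNGAAA, found in 2.98% of promoters).
B2m, chr2:122147539-122147658, plus strand: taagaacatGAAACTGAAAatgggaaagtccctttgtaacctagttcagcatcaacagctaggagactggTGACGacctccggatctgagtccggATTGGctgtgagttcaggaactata
H2-K1, chr17:34000349-34000458, minus strand: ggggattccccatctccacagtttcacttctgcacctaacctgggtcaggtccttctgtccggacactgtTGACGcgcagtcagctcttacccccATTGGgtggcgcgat
H2-D1, chr17:35262993-35263022, plus strand: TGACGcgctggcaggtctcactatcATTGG

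The X2 core began 78 bases before the B2m start, 41 bases before the H2-K1 start and 101 bases before the H2-D1 start. The promoter windows of Psmb9, Tap1 and Tapbp held an X2 core, a Y core or both without this spacing, and that of Psmb8 held a gamma-activated site (searched as TTCNNNGAA, found in 7.02% of promoters) 97 bases before the start. The window of Psmb10 held none of these letters. A match is a description of the letters, and binding was not measured in these libraries.

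By the GENCODE M21 annotation of GRCm38, 7 of the genes lie on chromosome 17. They run from Tapbp (33915899 to 33929292, plus strand) and H2-K1 (33996017 to 34000347, minus strand) through the block of Psmb9 (34181987 to 34187764, minus strand), Tap1 (34187553 to 34197225, plus strand), Psmb8 (34197721 to 34201454, plus strand) and Tap2 (34203527 to 34216321, plus strand) to H2-D1 (35262730 to 35267499, plus strand). B2m is on chromosome 2 (122147686 to 122153083, plus strand), and Psmb10 (105935735 to 105938444, minus strand) and Nlrc5 (94434356 to 94527272, plus strand) are on chromosome 8. The RefSeq starts of Psmb9 and Tap1 are 226 bases apart on opposite strands, and the annotated spans of this pair overlap. The library kit kept strand, but the strand setting of the authors' counting is not given in the sources used here. Of the 50-base stretches of the longest transcript, 14.3% for H2-D1 and 8.11% for H2-K1 also occur in other genes, chiefly class I ones, so the split of reads among these genes is uncertain.

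The values are FPKM (fragments counted for a gene, divided by transcript length and by sequencing depth). The steps between a gene's values gave whole reads, with 11429198 to 15973834 reads on listed genes in the control libraries and 11206800 to 12756225 in the IGF1 libraries. Behind each value of a member stood 811 to 82775 reads, the lowest numbers being those of Nlrc5. Control replicate 2 stood apart from the other controls. The mean chi-squared per gene was 1.517 between control replicates 1 and 3 and 1.688 to 1.894 between IGF1 libraries, against 228.756 and 230.541 between control replicate 2 and the other controls and 24.607 to 27.957 between it and the IGF1 libraries. The FPKM of all genes summed to 466619 and 466135 in control replicates 1 and 3, to 635111 in control replicate 2, and to 677826 to 680285 in the IGF1 libraries. A value in TPM, which is the FPKM divided by this sum and scaled to 1000000 per library, can therefore move differently from the FPKM itself. The RNA of both genes that the gate selects against was present. Cd34 was at 265 to 640 FPKM in the controls and 230 to 238 FPKM with IGF1, and Flt3, which encodes Flk2, at 117 to 172 FPKM and 183 to 188 FPKM.

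All 10 members passed the filter of at least 1 FPKM in at least 3 libraries, and none was called by limma at a fold change over 2 and an adjusted p under 0.05. Of the 10449 genes tested, 1.98% were called higher with IGF1 and 4.63% lower. At an unadjusted p under 0.05, 2 of the 10 members passed in limma and 3 in voom on the recovered reads, and voom also called 0 of them. In limma 53.4% of all genes tested had an unadjusted p under 0.05, a larger share than that of the members. The log2 fold changes of 6 members lay above 0 and those of 4 below, with a median of 0.23, against -0.18 over all genes tested. The 2 groups did not overlap in 5 of the 10 members, a share below the 59.4% of all genes tested. In 8 of the 10 members, control replicate 2 lay nearer to the IGF1 mean than to the mean of control replicates 1 and 3, as it did in 77.3% of all genes tested. The exceptions were B2m and Tap1.

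**Figure D1:**
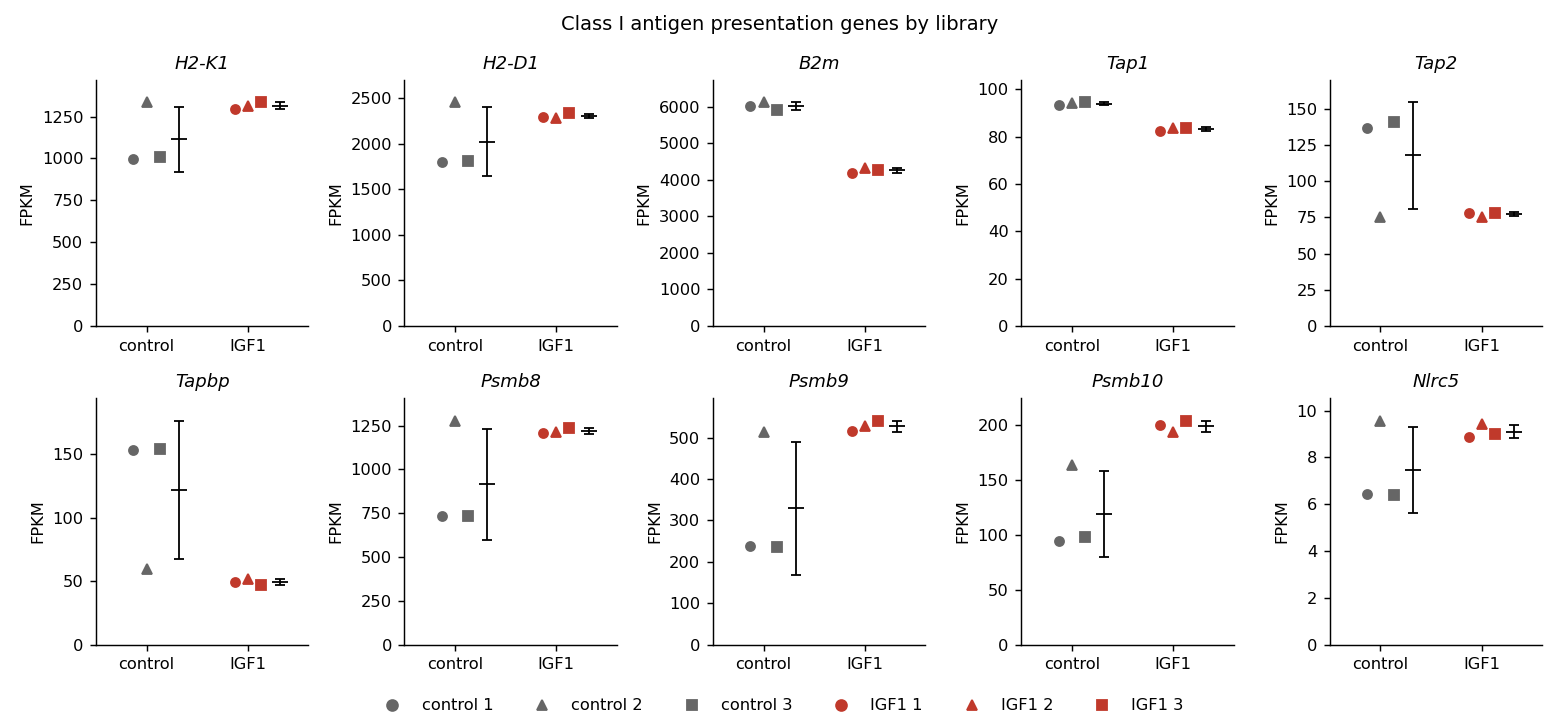
FPKM (vertical axes, each from 0) of the 10 class I antigen presentation genes in the 3 control libraries (grey) and the 3 IGF1 libraries (red), with circles, triangles and squares for replicates 1, 2 and 3 and black bars for the mean ± SD of each group. The IGF1 libraries sit close together in each panel, and the grey triangle (control replicate 2) lies with the other controls in B2m and Tap1 and nearer to the IGF1 libraries in the rest.

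B2m was at 6021, 6131 and 5914 FPKM in control replicates 1, 2 and 3 and at 4201, 4338 and 4276 FPKM in IGF1 replicates 1, 2 and 3. All IGF1 libraries lay below all control libraries, and control replicate 2 was the highest of the controls. Among all genes, B2m ranked 1, 2 and 1 by FPKM in the control libraries and 12, 11 and 11 in the IGF1 libraries. The IGF1 mean was 0.709 of the control mean, a log2 fold change of -0.50 ± 0.30 (SE, n = 3 per group), and the adjusted p of 0.202 missed the threshold. The SE of a log2 fold change, here and below, is the moderated one of limma. It borrows variance from genes of like expression, so it is not the spread of the gene alone. The SD between the B2m values of the libraries was 108 FPKM in the controls and 68.8 FPKM with IGF1. When the variance was not tied to the trend over expression level, the adjusted p was 0.0383 at the same log2 fold change, short of a 2-fold difference.

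H2-K1 was at 995, 1334 and 1010 FPKM in the control libraries and at 1296, 1314 and 1336 FPKM in the IGF1 libraries. H2-D1, the more abundant heavy chain RNA, was at 1806, 2460 and 1812 FPKM in the control libraries and at 2292, 2290 and 2336 FPKM in the IGF1 libraries. In both genes control replicates 1 and 3 were lower than the IGF1 libraries while control replicate 2 lay among or above them, so the groups overlapped. The log2 fold change was 0.25 ± 0.20 (SE) for H2-K1, with an adjusted p of 0.319. For H2-D1 it was 0.20 ± 0.24 (SE), with an adjusted p of 0.496.

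The direction of the heavy chains rests on the scale. H2-D1 was at 3871, 3873 and 3887 TPM in the control libraries and at 3369, 3379 and 3442 TPM in the IGF1 libraries. On this scale the 3 controls, replicate 2 included, agreed closely, and each lay above each IGF1 library. H2-K1 was at 2132, 2101 and 2168 TPM in the control libraries and at 1905, 1938 and 1968 TPM in the IGF1 libraries, again without overlap. With the libraries scaled to equal sums of FPKM (the TPM scale), the log2 fold changes were -0.14 for H2-K1 and -0.19 for H2-D1, with adjusted p of 0.293 and 0.197, so neither direction passed the test. B2m kept its direction on this scale, at -0.89 and an adjusted p of 0.0485, with 9654 to 12903 TPM in the controls and 6175 to 6400 TPM in the IGF1 libraries.

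**Figure D2:**
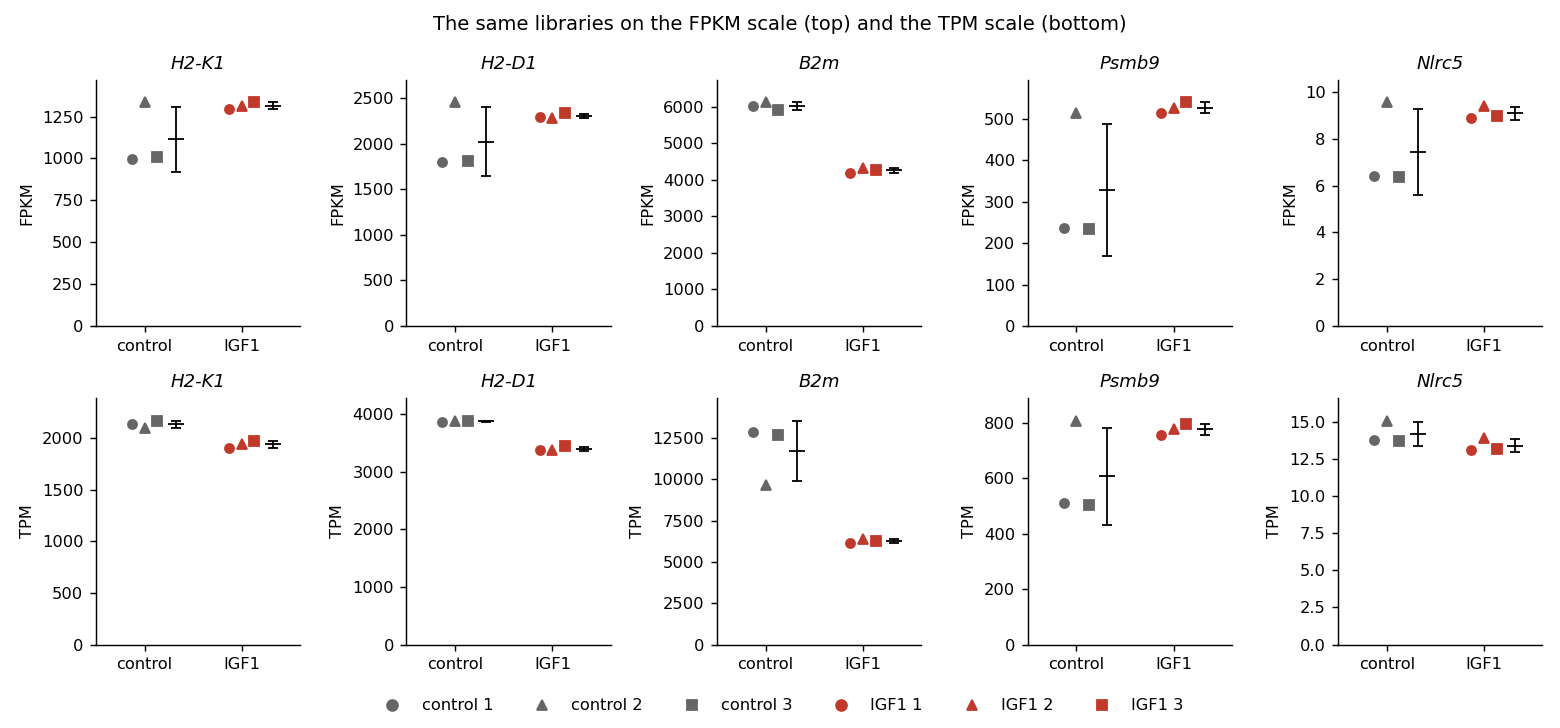
H2-K1, H2-D1, B2m, Psmb9 and Nlrc5 as FPKM (top row) and in TPM, relative to the summed FPKM of the same library (bottom row), all axes from 0, with control libraries in grey, IGF1 libraries in red, replicates 1, 2 and 3 as circles, triangles and squares, and bars for the mean ± SD. The heavy chains lie higher with IGF1 than in control replicates 1 and 3 in the top row and lower in the bottom row, while B2m lies lower with IGF1 in both.

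The ratio of heavy to light chain RNA within a library does not depend on how libraries are scaled to one another. H2-K1/B2m was 0.165, 0.218 and 0.171 in the control libraries and 0.309, 0.303 and 0.312 in the IGF1 libraries. H2-D1/B2m was 0.300, 0.401 and 0.306 in the control libraries and 0.546, 0.528 and 0.546 in the IGF1 libraries. Each IGF1 library exceeded each control in both ratios, with control replicate 2 in an intermediate position. The ratio of geometric means was 1.68-fold for H2-K1/B2m and 1.62-fold for H2-D1/B2m, with an exact 2-sided permutation p of 0.1 for each (0.1 after adjustment over both), the smallest that 3 against 3 libraries allow. Set against control replicate 2 alone, the IGF1 libraries were 1.41-fold and 1.35-fold higher in these ratios. The log2 differences of 0.75 and 0.70 kept their sign when trends on gene length and GC content were removed from each library (0.88 and 0.85) and under quantile normalization (0.56 and 0.25).

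Of the peptide transporter genes, Tap1 differed little between the groups in FPKM. It was at 93.3, 94.2 and 94.5 FPKM in the control libraries and at 82.3, 83.6 and 83.8 FPKM in the IGF1 libraries. The groups did not overlap, and control replicate 2 lay between the other controls. The IGF1 mean was 0.885 of the control mean, with a log2 fold change of -0.17 ± 0.09 (SE) and an adjusted p of 0.143, and scaling to the 75th percentile or by median ratios turned the direction (0.08 and 0.05).

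Tap2, its partner in the transporter, was at 137, 75.4 and 141 FPKM in the control libraries and at 78.3, 75.6 and 77.7 FPKM in the IGF1 libraries. Control replicate 2 was the lowest of all 6 libraries, so the groups overlapped, at a log2 fold change of -0.55 ± 0.25 (SE) and an adjusted p of 0.121. Without control replicate 2, Tap2 was at 0.556 of the level of the other controls, and Tap1 at 0.886.

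Tapbp, which encodes tapasin, had the largest log2 fold change in size among the members on the scale as deposited, though not under 75th percentile, median ratio or quantile scaling. It was at 153, 59.2 and 154 FPKM in the control libraries and at 49.4, 51.6 and 47.2 FPKM in the IGF1 libraries. All IGF1 libraries lay below all controls, control replicate 2 being close above them. The log2 fold change was -1.17 ± 0.38 (SE), past 2-fold, but the adjusted p of 0.0631 missed the threshold. With that library left out, the value was -1.62 ± 0.04 (SE) and the adjusted p 2.3e-10.

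The RNAs of the 3 immunoproteasome subunits were higher with IGF1 than in control replicates 1 and 3. Psmb8, which encodes the chymotrypsin-like subunit β5i, was at 732, 1279 and 732 FPKM in the control libraries and at 1206, 1214 and 1238 FPKM in the IGF1 libraries. Psmb9, which encodes β1i, was at 238, 514 and 235 FPKM in the control libraries and at 515, 527 and 541 FPKM in the IGF1 libraries. Psmb10, which encodes β2i, was at 94.8, 164 and 98.2 FPKM in the control libraries and at 200, 194 and 204 FPKM in the IGF1 libraries. Control replicate 2 lay above the IGF1 libraries in Psmb8, just under the lowest of them in Psmb9 and clearly under them in Psmb10. The log2 fold changes were 0.47 ± 0.27 (SE) for Psmb8, 0.78 ± 0.33 for Psmb9 and 0.79 ± 0.23 for Psmb10, with adjusted p of 0.189, 0.0978 and 0.0536, and none passed. Under quantile normalization Psmb8 turned to -0.44, while Psmb9 and Psmb10 stayed above 0 in all 19 alternatives, from 0.39 to 1.15 and from 0.30 to 1.04.

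Each subunit was then set against the constitutive subunit whose place it takes. Psmb8/Psmb5 was 2.23, 2.20 and 2.15 in the control libraries and 2.38, 2.44 and 2.23 in the IGF1 libraries. Psmb9/Psmb6 was 0.604, 0.601 and 0.585 in the control libraries and 0.649, 0.647 and 0.649 in the IGF1 libraries. In these 2 ratios control replicate 2 lay among the other controls, although the FPKM of Psmb8, Psmb5 and Psmb6 in that library was above that of the IGF1 libraries and that of Psmb9 just below. On the values as deposited, the IGF1 libraries were 1.07-fold and 1.09-fold higher, with overlap in the first ratio and none in the second. The exact 2-sided permutation p was 0.2 for Psmb8/Psmb5 and 0.1 for Psmb9/Psmb6 (0.2 and 0.15 after adjustment over the 3 ratios). Quantile normalization turned the log2 difference of Psmb8/Psmb5 from 0.10 to -0.27 and moved that of Psmb9/Psmb6 from 0.12 to 0.45. Detrending each library for length and GC gave 0.87 for Psmb8/Psmb5 and 0.85 for Psmb9/Psmb6. The exact 2-sided permutation p was 0.1 for each ratio in both settings. The size of the gap in these 2 ratios thus depended on the processing.

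Psmb10/Psmb7 showed a wider gap on the values as deposited. It was 0.794, 1.06 and 0.836 in the control libraries and 1.64, 1.53 and 1.58 in the IGF1 libraries. Each IGF1 library exceeded each control, by 1.78-fold between geometric means and by 1.5-fold against control replicate 2 alone, with an exact 2-sided permutation p of 0.1 (0.15 after adjustment over the 3 ratios). Psmb7 itself was at 120, 155 and 117 FPKM in the control libraries and at 122, 127 and 129 FPKM in the IGF1 libraries, with control replicate 2 the highest. When the trends on gene length and GC content were removed, the log2 difference of 0.83 in this ratio turned to -0.35, with an exact 2-sided permutation p of 0.4. It was then the lowest of the 3 ratios, while under quantile normalization it stayed the highest, at 0.79.

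**Figure D3:**
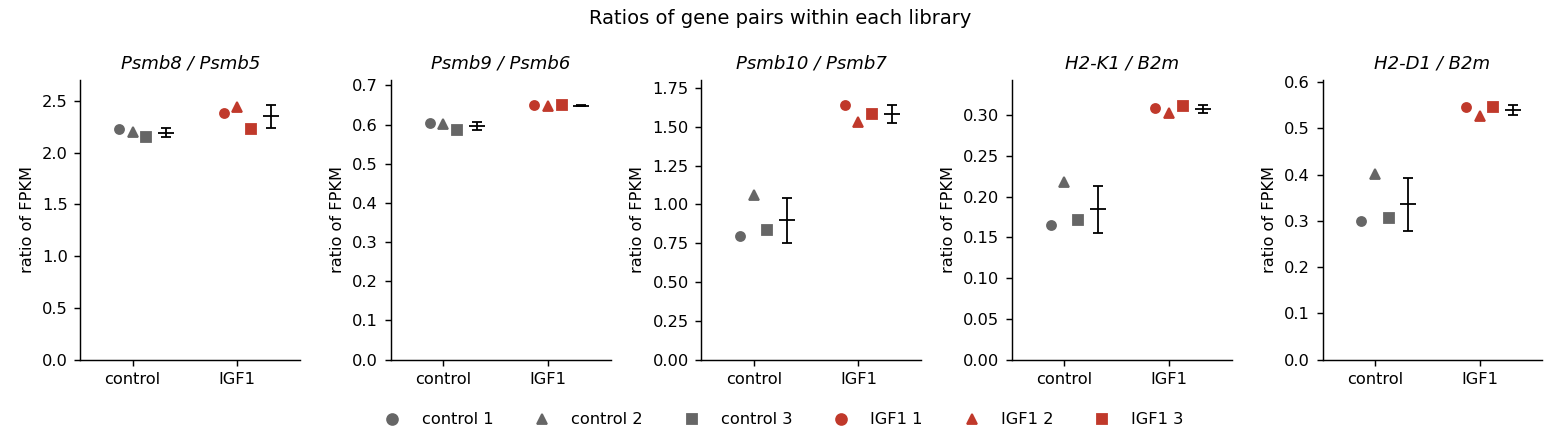
Ratios of FPKM within each library (vertical axes, each from 0) for 3 immunoproteasome subunits over their constitutive counterparts and for both heavy chains over B2m, with control libraries in grey, IGF1 libraries in red, replicates 1, 2 and 3 as circles, triangles and squares, and bars for the mean ± SD. On these values as deposited, Psmb8/Psmb5 and Psmb9/Psmb6 differ little between groups. Psmb10/Psmb7, H2-K1/B2m and H2-D1/B2m are higher in each IGF1 library than in each control.

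Nlrc5, the transactivator, was the least abundant member. It was at 6.42, 9.57 and 6.37 FPKM in the control libraries and at 8.88, 9.42 and 8.98 FPKM in the IGF1 libraries. Control replicate 2 was the highest library, so the groups overlapped, at a log2 fold change of 0.28 ± 0.17 (SE) and an adjusted p of 0.219. Scaled to equal sums, the log2 fold change was -0.07, and under quantile normalization it was 0.53.

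Leaving out control replicate 2 changed the calls. Psmb9 (log2 fold change 1.15 ± 0.03, SE) and Psmb10 (1.04 ± 0.03) were then called higher, and Tapbp (-1.62 ± 0.04) lower, with n = 2 control and 3 IGF1 libraries. These were 2 of 10 members called higher where 12.3% of all genes tested were, and 1 of 10 called lower where 20.6% were. All 10 members had an adjusted p under 0.05 in that fit, as had 88.5% of all genes tested. Leaving out any other library left 0 genes called by limma in the whole table, with 2982 to 3205 genes at an unadjusted p under 0.05.

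Of the 10 members, 5 kept 1 direction in all 20 settings tried. B2m, Tap2 and Tapbp were lower with IGF1 throughout, with log2 fold changes from -1.18 to -0.24, from -0.94 to -0.29 and from -1.62 to -0.91, and Psmb9 and Psmb10 were higher throughout. H2-K1, H2-D1, Tap1, Psmb8 and Nlrc5 changed sign with the scaling. The median over all genes tested itself moved from -0.18 as deposited to -0.02 under quantile normalization, 0.04 under 75th percentile scaling, 0.01 under median ratio scaling and -0.52 with equal sums. The 207 higher and 484 lower calls over all genes became 304 and 319, 300 and 259, 321 and 245, and 32 and 195 in the same order. Relative to that median, B2m lay lower in each of these 5 scalings and Psmb9 and Psmb10 higher.

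**Figure D4:**
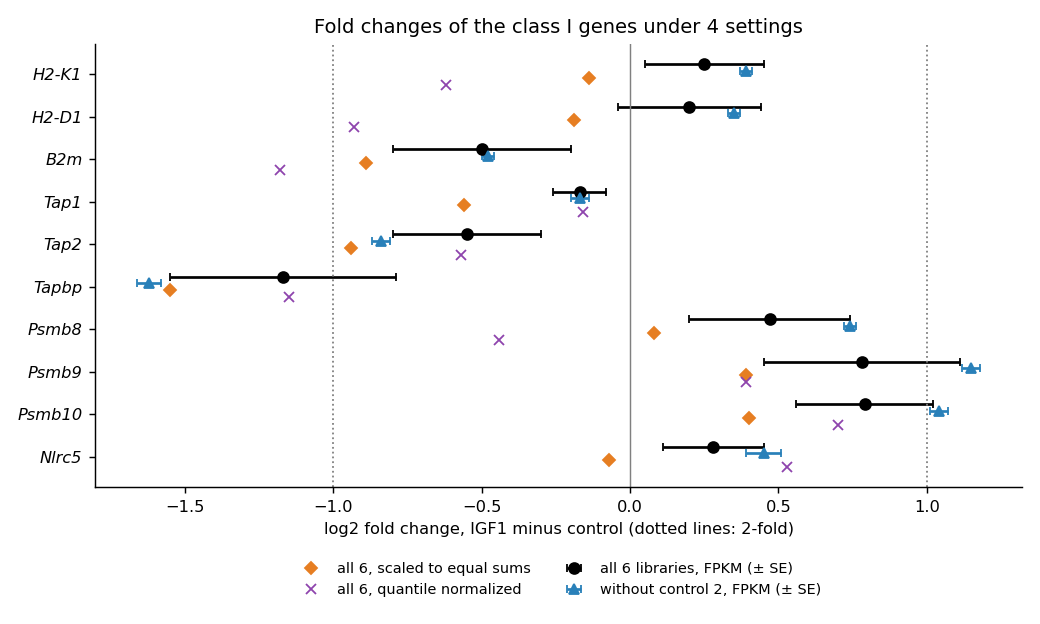
Log2 fold change (IGF1 minus control) of the 10 members from all 6 libraries as deposited (black, ± SE), without control replicate 2 (blue, ± SE), with libraries scaled to equal sums (orange) and under quantile normalization (purple), where dotted lines mark 2-fold. The error bars shrink without control replicate 2, and H2-K1, H2-D1, Psmb8 and Nlrc5 have points on both sides of 0.

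Other genes of the pathway were taken from 4 lists of 61 genes in all, of which 53 could be tested. Of these, 0 were called higher and 4 lower, and the median log2 fold change was -0.22, near the -0.18 of all genes tested. By limma 25 of the 53 had an unadjusted p under 0.05 and 10 an adjusted p under 0.05, where 53.4% and 20.4% of all genes tested had. The 4 calls were lost with equal sums of FPKM, and when any library other than control replicate 2 was left out. In these fits the adjusted p was missed while the fold changes stayed past 2-fold. With equal sums they were -1.53 for Mr1, -1.57 for Canx, -2.13 for Pdia3 and -1.67 for Ifngr1, with adjusted p from 0.0508 to 0.0533. With length and GC trends removed, Canx and Mr1 stood at -0.59 and -0.53, under 2-fold. Canx was also under 2-fold with 75th percentile scaling (-0.93) and median ratio scaling (-0.97), and Mr1 with a pseudocount of 5 (-0.70). The adjusted p of Pdia3 was 0.0574 under quantile normalization, and with no filter those of Pdia3, Mr1 and Ifngr1 were 0.0575, 0.0515 and 0.0528. Without control replicate 2, 5 of the 53 were called higher and 11 lower, where 12.3% and 20.6% of all genes tested were.

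Among the genes like class I heavy chains, 0 of 12 tested were called higher and 1 lower, with a median of -0.09. The one called was Mr1, which presents small metabolites to MAIT cells. It was at 9.06, 4.18 and 8.69 FPKM in the control libraries and at 2.60, 2.70 and 2.04 FPKM in the IGF1 libraries, without overlap, and fell by 1.21 on the log2 scale (SE 0.28, adjusted p 0.0429). H2-T23, which encodes the nonclassical molecule Qa-1 and is read by NK cell receptors, was at 311, 654 and 303 FPKM in the control libraries and at 663, 653 and 633 FPKM in the IGF1 libraries. It followed the pattern of Psmb9, with control replicate 2 among the IGF1 libraries and an adjusted p of 0.115. H2-M3, which presents formylated peptides, was near level at 44.8 to 48.8 FPKM in the controls and 48.1 to 49.7 FPKM with IGF1, and its log2 fold change of 0.08 turned to -0.31 with equal sums. H2-Q7 (0.62 ± 0.27, SE) and H2-Q4 (0.62 ± 0.22) had adjusted p of 0.108 and 0.0743, and the split of reads among the H2-Q genes, which are close paralogs, is uncertain. H2-Q6, named after its values were seen, lay the other way, at -0.63.

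Loading and trimming genes of the ER had the lowest median of the lists, at -0.90, with 2 of 9 called lower and 0 higher. Pdia3, the disulfide isomerase ERp57 of the loading complex, was at 463, 152 and 459 FPKM in the control libraries and at 94.4, 95.7 and 94.6 FPKM in the IGF1 libraries. Canx, the chaperone calnexin, was at 153, 89.2 and 154 FPKM in the control libraries and at 57.3, 57.4 and 53.0 FPKM in the IGF1 libraries. In both the groups did not overlap and control replicate 2 lay between the others. Pdia3 fell by 1.74 on the log2 scale (SE 0.44, adjusted p 0.047) and Canx by 1.19 (SE 0.23, adjusted p 0.0367).

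Erap1, the aminopeptidase that trims peptides in the ER, was at 57.8, 14.4 and 55.6 FPKM in the control libraries and at 10.1, 11.8 and 10.7 FPKM in the IGF1 libraries. Its log2 fold change of -1.65 ± 0.53 (SE) came with an adjusted p of 0.061 and was not called, but it was called lower without control replicate 2. Calr, the chaperone calreticulin, had -0.28 and an adjusted p of 0.153. Tapbpl, the tapasin-like peptide editor, had -0.07 and an adjusted p of 0.643, and its sign turned in 6 alternatives. Of the 9 genes, 2 lay above 0, the translocon subunits Sec61g and Sec61b, named after their values were seen. Sec61g had 1.82 ± 0.60 (SE) and an adjusted p of 0.064, a larger log2 fold change in size than any other of the list, and Sec61b had 0.85 ± 0.36 and 0.104. Without control replicate 2, 2 of the 9 genes were called higher (these 2) and 5 lower, where 12.3% and 20.6% of all genes tested were.

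Proteasome partners and activators had the highest median, at 0.44, with 0 of 10 called in either direction, and 2 of the 10 had an unadjusted p under 0.05 in limma. Those 2 both lay below 0 and were named after their values were seen. They were Psme3, which encodes the PA28γ activator (-1.35 ± 0.42, SE, adjusted p 0.0588), and Psmg2, which encodes a proteasome assembly chaperone (-0.46 ± 0.09, adjusted p 0.0369, under 2-fold). Psme1 and Psme2, which encode the PA28 activator of the proteasome, had log2 fold changes of 0.68 ± 0.32 (SE) and 0.61 ± 0.28, with adjusted p of 0.125 and 0.119. Psmb6 (0.66 ± 0.33, adjusted p 0.14) and Psmb5 (0.37 ± 0.25, adjusted p 0.253), the constitutive partners of Psmb9 and Psmb8, lay on the same side as these, and both turned below 0 under quantile normalization. Psmb7, the partner of Psmb10, was near 0 at -0.04 ± 0.14 and above 0 under 75th percentile and median ratio scaling. Without control replicate 2, Psmb6 and Psme1 were called higher and Psme3 lower, in a fit that called 12.3% and 20.6% of all genes tested.

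Of 22 regulators and interferon signalling genes tested, 0 were called higher and 1 lower, with a median of -0.30. Of these, 7 lay above 0 and 15 below. An adjusted p under 0.05 was reached by 6 of the 22, where 20.4% of all genes tested reached it. Ifngr1, the ligand-binding chain of the interferon gamma receptor, was at 119, 55.0 and 117 FPKM in the control libraries and at 36.7, 39.5 and 34.8 FPKM in the IGF1 libraries. It fell by 1.29 on the log2 scale (SE 0.31, adjusted p 0.0445), and no IGF1 library reached the lowest control. Ifngr2, the second chain, had -0.49 ± 0.20 (SE) and an adjusted p of 0.0921.

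Irf1, an interferon-induced activator of class I genes, had -0.15 and an adjusted p of 0.219. Irf2, which binds the same kind of element, had -0.11 and an adjusted p of 0.464, and both lay above 0 under quantile, 75th percentile and median ratio scaling. Rfx5, a subunit of the RFX complex on the X box, had -0.48 and an adjusted p of 0.0856. Rfxank, another subunit of that complex, lay the other way at 0.68 ± 0.15 (SE, adjusted p 0.0412), as did Irf8 at 0.73 ± 0.14 (adjusted p 0.0369). In both, each IGF1 library lay above each control, under 2-fold, and both were named after their values were seen.

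**Figure D5:**
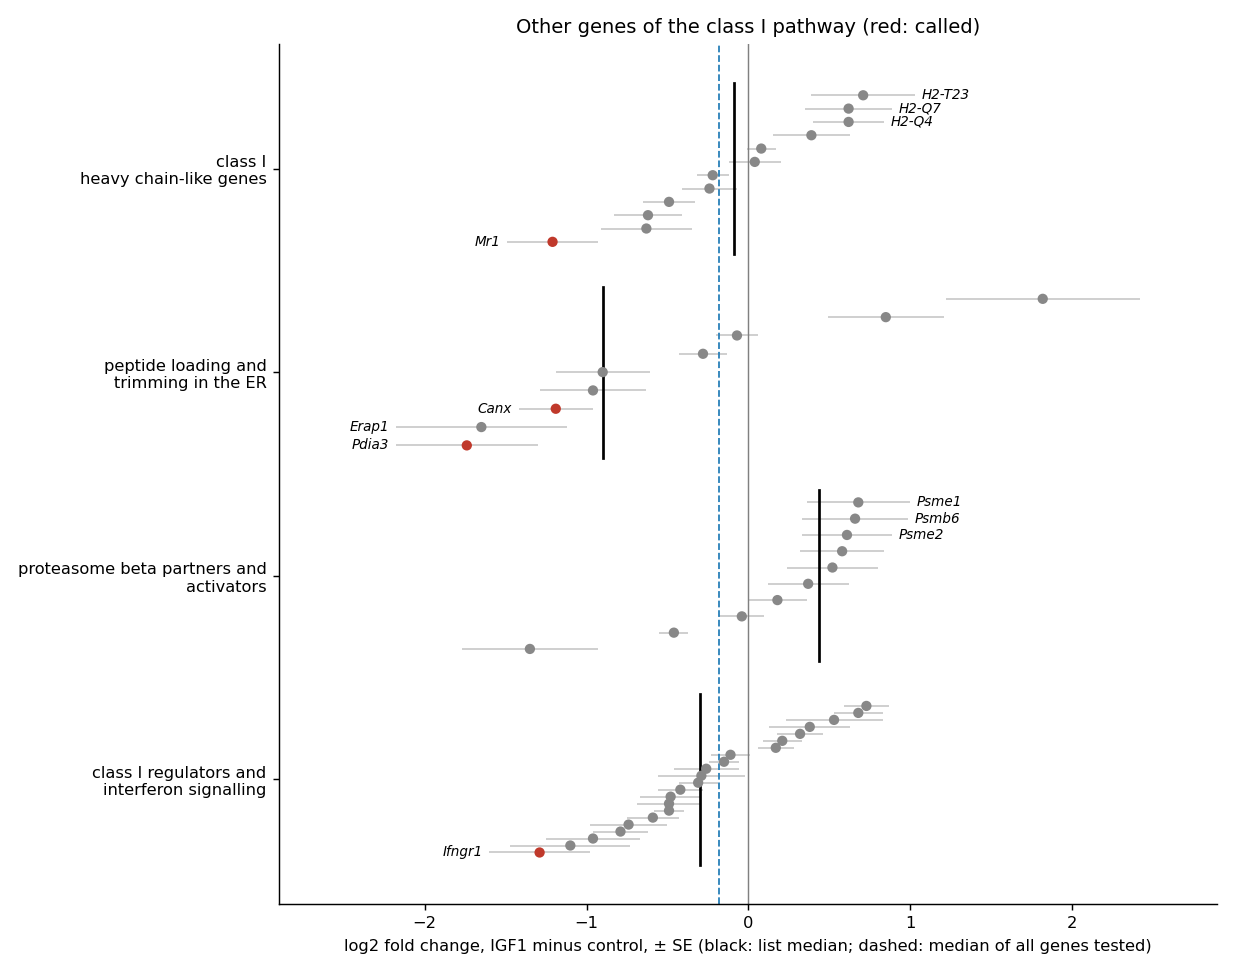
Log2 fold change (IGF1 minus control, ± SE) of the 53 tested pathway genes outside the 10 members, one point per gene in 4 lists, where red marks called genes, black bars the list medians and the dashed line the median of all genes tested (-0.18). The 4 called genes (Mr1, Pdia3, Canx and Ifngr1) lie below 0, and most proteasome partners and activators lie above it without a call.

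The genes with the pattern most like that of B2m over the 6 libraries were Clk1, Eef1e1 and Ndufa9, with Pearson r of log2(FPKM + 1) from 0.9972 to 0.9987. For H2-K1 they were Cyhr1, Zfp36l2 and Arhgdib (r = 0.9997 each), and for Psmb8 they were Rbm33, Mrpl51 and Apbb1ip (r from 0.9997 to 0.9999). Such values were common. An r above 0.99 was reached by 46 genes for B2m, by 460 for H2-K1 and by 515 for Psmb8. The 6 points share the split of control replicate 2 from the other controls, and the correlations are a description of these libraries.

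The summed markers of several other blood cells, though not of all, also moved with the split of the libraries. The 8 B cell markers summed to 111 FPKM in both control replicates 1 and 3, to 423 FPKM in control replicate 2 and to 390 to 406 FPKM with IGF1, with 5 of the 8 at 1 FPKM or more in every library and Pax5 and Ms4a1 under 1 FPKM in all. The 7 T and NK cell markers summed to 360 to 371 FPKM, 781 FPKM and 776 to 795 FPKM in the same order. Nearly all of this was Nkg7, and Cd3e and Cd8a, which define T cells, were at most 0.206 and 0.36 FPKM. Klrd1, an NK cell marker, was the only gene of this list called, higher with IGF1 (log2 fold change 1.95, adjusted p 0.0286). It was at 0.397, 1.31 and 0.691 FPKM in the control libraries and at 5.84, 6.25 and 5.37 FPKM in the IGF1 libraries, with control replicate 2 near the other controls. The 9 monocyte, macrophage and dendritic cell markers summed to 439 to 444 FPKM, 761 FPKM and 649 to 661 FPKM, with 7 of the 9 at 1 FPKM or more in every library. Ly6c2 made up most of the difference, at 26.7 to 29.6, 379 and 340 to 347 FPKM, while Cd74, H2-Aa and H2-Ab1 had log2 fold changes of -0.75, -0.61 and -0.29. The 9 markers of neutrophils and their precursors summed to 2265 to 2298 FPKM, 2437 FPKM and 2438 to 2445 FPKM. Most of that sum was Mpo (1613 to 1705 FPKM over the 6 libraries), and Elane was at 92.4 to 92.8, 576 and 692 to 709 FPKM in the same order. Ngp, Camp, S100a8 and S100a9 of this list were called lower with IGF1, with log2 fold changes of -3.39, -2.32, -1.90 and -2.25. The 6 erythroid markers did not follow the split, at 34.0 to 37.2, 96.5 and 45.2 to 51.1 FPKM in the same order. For the 5 megakaryocyte and platelet markers, control replicate 2 lay between, at 51.8 to 52.5, 74.5 and 93.1 to 104 FPKM. Of these 5, Gp1bb was called higher with IGF1 (log2 fold change 1.12, adjusted p 0.0368), while Itga2b had -0.48. The part of other cells in the levels of the class I genes was not tested.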

How the data were processed

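RNA of sorted HSCs was sequenced by the authors from TruSeq Stranded mRNA libraries. The submitters' processing notes name fastp, HISAT2, StringTie and GRCm38 (mm10), while the study's methods name RSEM for quantification. The authors deposited 1 value per gene and library, which was taken as FPKM from the values. Of 15640 genes above 0, 15640 gave whole reads (within 0.001 reads) from the steps between values, and 0 of 1000 jittered rows did. As the deposited unit is no count, a count model was not the main test.

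A linear model with the group as its term was fitted in limma 3.58.1 (R 4.3.3; moderated variances that follow expression level) to log2(FPKM + 1) of the 10449 genes that reached 1 FPKM in 3 or more libraries, and p-values were adjusted over all of them (Benjamini-Hochberg). Calls needed a change of more than 2-fold and an adjusted p under 0.05, as in the study, and fold changes on this scale understate those of low genes. Ratios were tested by exact permutation in scipy 1.17.1. The members, the lists and the rule for named genes (the members, 20 fixed pathway genes, called pathway genes up to 4 per list and the 3 genes most like each of H2-K1, B2m and Psmb8) were chosen with earlier results of these data known. Of the fixed pathway genes, 1 is not reported here. H2-Q6, Psme3, Psmg2, Sec61b, Sec61g, Rfxank, Irf8 and the marker genes named singly fall outside that rule. Alternatives were other scalings, filters and pseudocounts, no trend, removal of length and GC trends, voom, no fold threshold, a replicate block and leaving out each library. Equal sums, and the ratios after detrending or quantile normalization, were chosen after seeing the data. Irradiated samples were not analysed here.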

Additional observations from a re-analysis of the deposited data

How the results depend on the processing

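Of 190 alternative log2 fold changes of the 10 members, 178 kept their direction and their side of the threshold, 4 passed it and 8 turned direction, and with 3 libraries per group, 1 of which stands apart, no more can be read from a missed threshold. The cause of each change below was not tested. Over all genes, with 207 called higher and 484 lower, the numbers called higher and lower were 304 and 319 under quantile normalization, 300 and 259 under 75th percentile scaling, 321 and 245 under median ratio scaling, 32 and 195 with equal sums, 109 and 265 with no filter, 66 and 157 with a pseudocount of 5, 153 and 151 with length and GC trends removed, 382 and 680 by voom, and 654 and 1476 by adjusted p alone. Of the members, 1 (B2m) was called lower under quantile normalization. Of the pathway genes (0 higher and 4 lower), 0 were called lower with equal sums and 1 with no filter, 1 was called higher and 2 lower with length and GC trends removed, and 2 higher and 8 lower by adjusted p alone.

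Leaving out 1 library gave 0 to 1281 genes called higher and 0 to 2157 lower, 0 to 2 members higher and 0 to 1 lower, and 0 to 5 pathway genes higher and 0 to 11 lower. The high ends came without control replicate 2. The log2 ratios ranged from 0.07 to 0.14 (Psmb8/Psmb5), 0.11 to 0.13 (Psmb9/Psmb6), 0.75 to 0.96 (Psmb10/Psmb7), 0.68 to 0.87 (H2-K1/B2m) and 0.62 to 0.83 (H2-D1/B2m).

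With a replicate block, alone or with length and GC trends removed, 0 genes of the whole table, of the members and of the pathway lists were called in either direction. The sources used here state no pairing by replicate number. Same-numbered libraries had correlations of deviations from their group means of -0.057, -0.05 and 0.006, and not every library correlated best with its own number. As control replicate 2 stands apart, its distance makes up most of the control deviations, so these correlations cannot show whether the numbers mark a pairing. Ratios with the replicate block kept their log2 values (0.10, 0.12, 0.83, 0.75 and 0.70, in the order above), with an exact sign-flip p of 0.25, the smallest 3 pairs allow.

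Signs turned as follows. Quantile normalization gave -0.62 for H2-K1, -0.93 for H2-D1, -0.44 for Psmb8, -0.17 for Psmb5, -0.05 for Psmb6, 0.20 for Tapbpl, 0.08 for Irf1, 0.16 for Irf2 and -0.27 for the Psmb8/Psmb5 ratio. Equal sums gave -0.14 for H2-K1, -0.19 for H2-D1, -0.07 for Nlrc5, -0.31 for H2-M3 and -0.02 for Psmb5. With 75th percentile and median ratio scaling, Tap1 was 0.08 and 0.05, Tapbpl 0.18 and 0.14, Psmb7 0.21 and 0.18, Irf1 0.10 and 0.07, and Irf2 0.12 and 0.08. Removing length and GC trends gave -0.35 for Psmb10/Psmb7 and, with and without the block, -0.10 for H2-M3, 0.05 for Tapbpl, -0.42 for Psmb5, 0.65 for Psmb7 and 0.41 for Irf2. Without control replicate 2, Tapbpl was 0.04 and Psmb7 0.09, from ranges over the libraries left out of -0.14 to 0.04 and -0.11 to 0.09.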
